A study of Mus musculus with 4 samples.

Results

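Collagens are the main structural proteins that fibroblasts secrete. The pro-alpha chains of type I collagen are encoded by Col1a1 and Col1a2, which assemble into a mixed triple helix. Col3a1 encodes the single chain of type III collagen, which forms fibrils together with type I, and Col6a1 encodes a chain of type VI collagen, which forms beaded filaments around cells. Collagen genes carry many short exons, so that a long series of introns has to be removed from each transcript. The SR proteins SRSF1 and SRSF2 contact RNA through an RNA recognition motif and recruit the splicing machinery through a domain rich in arginine and serine. How SR proteins cooperate and compete in splicing was the question of the study.

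The 4 genes were chosen by name as the fibrillar and type VI collagen genes, and their listed binding sites were described in 2 peak lists, 1 for each protein. Peaks of Col1a1 and Col6a1 were those in the host units NM_007742 and NM_009933, where a host unit is the RefSeq transcript or the numbered transcribed cluster named in the authors' lists. Col1a2 and Col3a1 had no RefSeq-named unit, and their peaks were the plus-strand ones within chr6:4455000-4492000 and chr1:45368000-45407000 on mm9. All of these belonged to 1 numbered cluster per gene. The 4 genes are 4 of 8738 genic host units with a peak, and hold 135 of 50983 SRSF1 peaks and 154 of 56336 SRSF2 peaks.

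Both libraries came from MEFs, which are mouse fibroblasts cultured from embryonic tissue, and were made by CLIP-seq, in which RNA crosslinked to a protein is recovered with an antibody and sequenced. The SRSF1 group is SRSF1 tet-repressible MEFs and the SRSF2 group SRSF2 tet-repressible MEFs, both kept without tetracycline and precipitated with an anti-HA antibody, HA being a peptide tag on the protein. Each protein was measured in its own line and in 1 library, so that protein and line cannot be told apart and no value has a replicate error. Libraries from siRNA-treated SRSF1 MEFs were not analysed here.

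The number of mapped reads is unknown for both libraries, and a number of peaks is not a depth. Intervals in this text are exact (Clopper-Pearson) 95% binomial intervals. They cover counting error only, and peaks of 1 transcript are not independent molecules. More RNA of a gene and stronger binding to it cannot be told apart in a peak list. Of 15 fibroblast marker genes, 3 had a peak in a RefSeq-named unit: Postn (13 SRSF1 and 2 SRSF2 peaks), Twist1 (0 and 2) and Twist2 (1 and 0). Of 7 epithelial markers Krt19 had 1 SRSF1 peak, and the 5 leukocyte, 4 endothelial and 8 cartilage and bone markers had no named peak. Only 15.9% of all peaks lie in units with a gene name, so an unnamed marker cannot be read as unbound.

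Both type I chains were among the transcripts with the most listed peaks in these fibroblasts, and SRSF1 and SRSF2 were listed there in similar numbers. Col1a1 had 55 SRSF1 and 52 SRSF2 peaks on the plus strand of chromosome 11, between chr11:94797584-94813158. Its partner Col1a2 had 55 SRSF1 and 63 SRSF2 peaks between chr6:4455732-4491243. By the sum of both proteins, Col1a2 ranked 32 and Col1a1 ranked 35 among the 8738 units. Col1a1 carried its peaks in a span of 15.6 kb and Col1a2 in 35.5 kb, which gave 3.53 SRSF1 and 3.34 SRSF2 peaks per kb of span in Col1a1 and 1.55 and 1.77 in Col1a2.

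Col6a1 also carried both proteins in equal number. It had 24 SRSF1 and 24 SRSF2 peaks on the minus strand, between chr10:76171557-76188645, or 1.40 of each per kb, and ranked 305.

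Col3a1 departed from the other collagen genes. Its 36.1 kb span (chr1:45368530-45404636) held 15 SRSF2 peaks and 1 SRSF1 peak, so the transcript of the type III chain ranked 796 by SRSF2 peaks and 5624 by SRSF1 peaks. The span is about as long as that of Col1a2, which had 118 peaks against 16 in Col3a1.

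**Figure D1:**
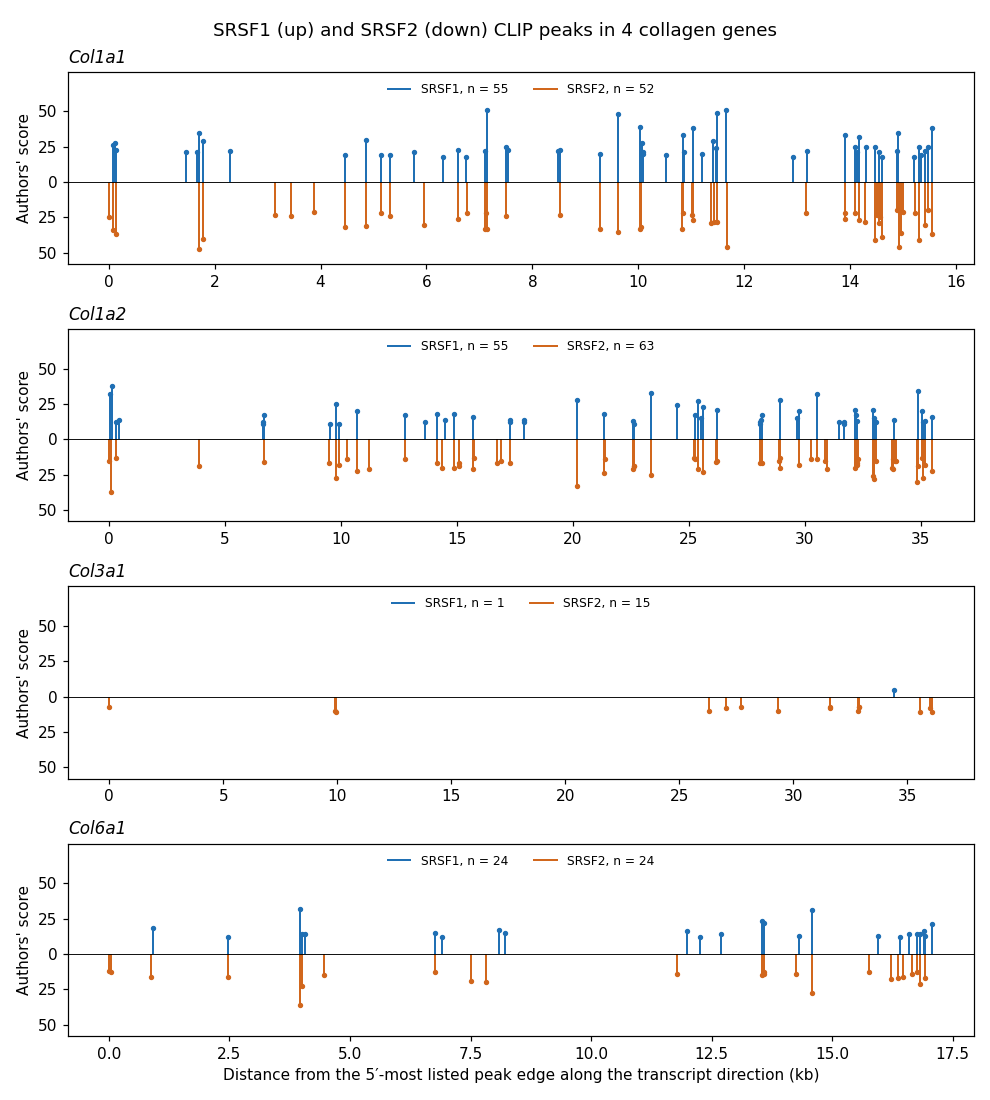
Each line is 1 listed peak, placed by its distance in kb from the 5′-most peak edge of the gene; its height is the authors' score, upward for SRSF1 and downward for SRSF2. Col1a1, Col1a2 and Col6a1 show both proteins along the span, while Col3a1 shows 15 SRSF2 peaks and 1 SRSF1 peak, all with scores of 11 or less.

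The SRSF1 share of a gene's peaks puts these counts on 1 scale, on which all peaks of both lists together gave 47.5%. Col1a1 stood at 51.4% (41.5 to 61.2), Col1a2 at 46.6% (37.4 to 56.0) and Col6a1 at 50% (35.2 to 64.8). These 3 intervals include the overall share and still leave room for differences in either direction. The share of Col3a1 was 6.25% (0.158 to 30.2), with an upper bound below the overall share. An interval that excludes the overall share was found for 1 of the 4 genes, against 5.83% of the 2948 genic units with at least 10 peaks, and one lying below it was found for 2.92% of them. The 4 genes together gave 46.7% (40.8 to 52.6), and 49.1% (43.0 to 55.2) without Col3a1, so the pooled value hides the departure of the type III gene.

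No other unit with at least 10 peaks had as low an SRSF1 share as Col3a1. Of the 2948 units, 1 had a share at or below 6.25%, which is Col3a1 itself, and the next was an unnamed cluster with 1 SRSF1 and 13 SRSF2 peaks (7.14%). Among the 120 units with exactly 16 peaks, only Col3a1 itself had at most 1 SRSF1 peak, and the median SRSF1 share of the 120 was 43.8%. Being the lowest of many shares is a description of these lists and has no test.

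**Figure D2:**
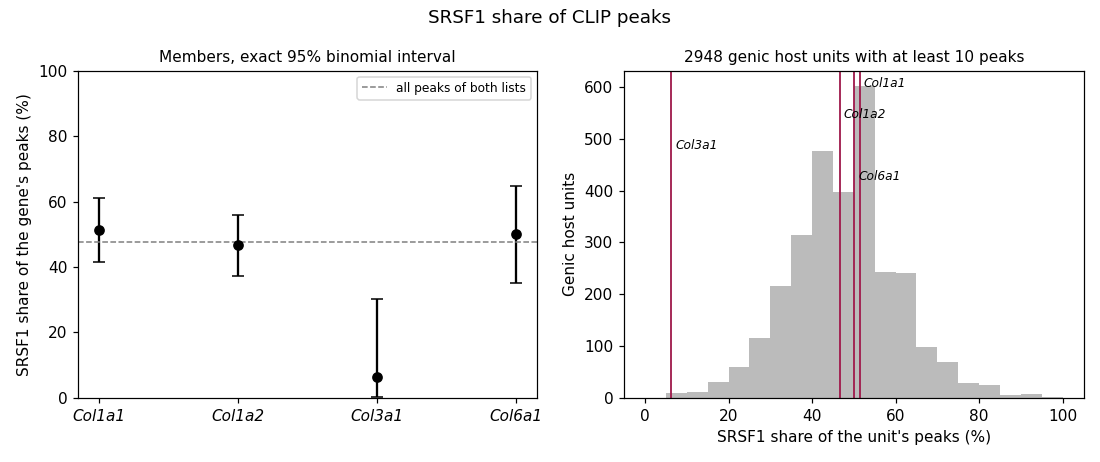
The left panel gives the SRSF1 share (in percent) of the peaks of each gene with its exact 95% binomial interval, and the dashed line the 47.5% of all peaks. The right panel is the histogram of that share over 2948 genic host units, with the 4 genes as vertical lines; Col3a1 at 6.25% lies at the lower end, the other collagen genes near the centre.

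Units on either side of Col3a1 held peaks of both proteins, and whether location bears on its SRSF1 count was not tested. The next unit on chromosome 1 with at least 10 peaks begins 28.1 kb beyond the last Col3a1 peak, on the minus strand, and had 99 SRSF1 and 83 SRSF2 peaks (54.4%, 46.9 to 61.8). On the other side, the nearest such unit lay 521 kb away and had 26 SRSF1 and 37 SRSF2 peaks (41.3%, 29.0 to 54.4). Neither unit had a gene name, so whether either is another collagen gene is not known here. Over the whole of chromosome 1 the SRSF1 share was 46.8% (45.7 to 47.9). No peak of either protein lay on the opposite strand within the span of any of the 4 genes.

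All peaks of Col3a1 scored below every listed peak of the type I and type VI genes in the same list. The authors' score is a whole number of undocumented meaning that serves only to rank peaks within a list. The single SRSF1 peak (chr1:45402920-45402927) had a score of 5, and the 15 SRSF2 peaks ran from 7 through a median of 8 to 11. The median of each whole list is 8, and 7 of the 15 SRSF2 peaks scored above it. Within their own list these SRSF2 peaks were thus ordinary, while the SRSF1 peak was low. The SRSF1 peak was numbered 2 by the authors and the last SRSF2 peak 24. Numbers are skipped in the lists. Further peaks may thus have been called in Col3a1 and not listed, at least 1 for SRSF1 and 9 for SRSF2. Skipped numbers also limit the counts of the type I and type VI genes. There they made up from 17.2% (SRSF2 in Col6a1) to 33.3% (SRSF1 in Col6a1) of the numbers up to the highest.

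The type I and type VI genes stood at the upper end of the scores. In Col1a1 the SRSF1 scores ran from 18 through a median of 23 to 51, and the SRSF2 scores from 20 through 28 to 47. The median Col1a1 peak exceeded 97.4% of the SRSF1 list and 98.2% of the SRSF2 list. In Col1a2 the scores ran from 11 through 15 to 38 for SRSF1 and from 13 through 18 to 37 for SRSF2. Col6a1 had scores from 12 through 14 to 32 for SRSF1 and from 12 through 15.5 to 36 for SRSF2. Every listed peak of these 3 genes scored above the median of its list.

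The lowest score of a unit differs widely between units, which limits such comparisons. Over units with at least 10 peaks, the median of the lowest score was 6 for SRSF1 and 7 for SRSF2, against 18 and 20 in Col1a1. A lowest score of 18 or more was found in 32 of 2948 units for SRSF1, and one of 20 or more in 36 of 2947 units for SRSF2. All 16 peaks of Col3a1 scored below the lowest listed peak of Col1a1 in the same list.

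SRSF1 and SRSF2 met at most of their listed sites in the type I genes. In Col1a1, 40 of 55 SRSF1 peaks (72.7%, 59.0 to 83.9) shared at least 1 nt on the same strand with an SRSF2 peak, and 41 of 52 SRSF2 peaks (78.8%, 65.3 to 88.9) with an SRSF1 peak. In Col1a2, 39 of 55 SRSF1 peaks (70.9%, 57.1 to 82.4) and 43 of 63 SRSF2 peaks (68.3%, 55.3 to 79.4) did so. The whole lists gave 38.7% and 35.2%. Both type I genes had intervals above these values for both proteins, as did 15.0% of the units with at least 10 SRSF1 peaks and 12.4% of those with at least 10 SRSF2 peaks.

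The other collagen genes had lower values, which were not tested against those of the type I genes. In Col6a1, 11 of 24 SRSF1 peaks (45.8%, 25.6 to 67.2) and 10 of 24 SRSF2 peaks (41.7%, 22.1 to 63.4) overlapped, with intervals that include the whole-list values and reach into those of the type I genes. In Col3a1 the single SRSF1 peak lay 1150 nt from the nearest SRSF2 peak. None of the 15 SRSF2 peaks overlapped, with an exact interval of 0 to 21.8% (the rougher limit of 3 counts in 15 is 20%). An interval below the whole-list value was found in 4.31% of the units with at least 10 SRSF2 peaks. With 1 SRSF1 peak in the gene, at most a few of these SRSF2 peaks could have overlapped.

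High scores and overlap go together over the whole lists, so each gene was also set beside other genic peaks within its own range of scores. For the range of Col1a1 these gave 78.2% for SRSF1 peaks and 74.8% for SRSF2 peaks, which the intervals of Col1a1 include. The range of Col1a2 gave 61.3% and 59.9%, and that of Col6a1 64.2% and 57.0%, again within the genes' intervals. The overlap of these 3 genes therefore did not stand apart from that of other peaks in the same score range at this precision. Only the lowest and highest scores were matched, and not how scores spread between them. For the range of the Col3a1 scores other SRSF2 peaks gave 32.1%, but with a single SRSF1 peak of 8 nt in Col3a1 its value of 0 restates the low SRSF1 count and no difference is read from it.

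**Figure D3:**
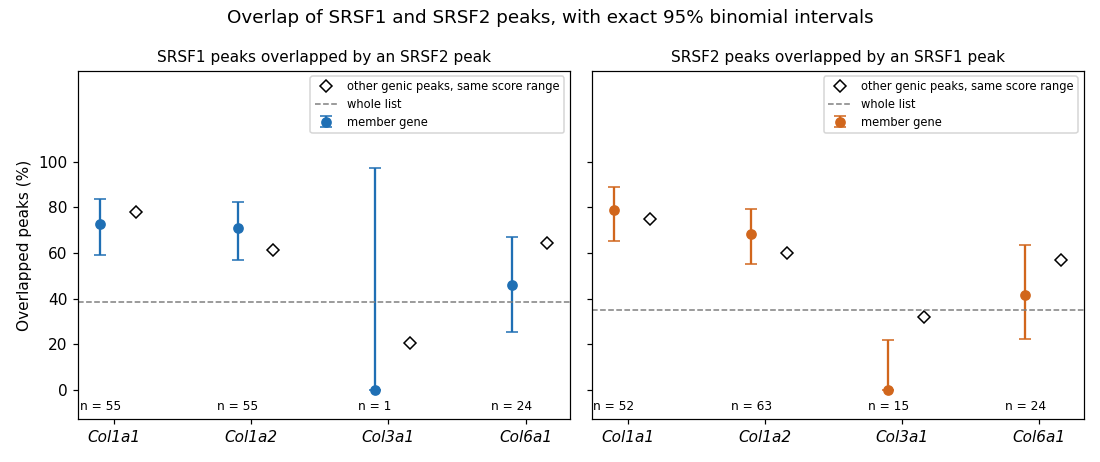
Filled circles give the share (in percent) of each gene's peaks that meet a peak of the other protein, with exact 95% binomial intervals and the number of peaks below; diamonds give other genic peaks in the same range of scores and the dashed line the whole list. Col1a1 and Col1a2 lie above the whole lists (38.7% for SRSF1, 35.2% for SRSF2) and beside their diamonds, and Col3a1 lies at 0.

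Where the proteins met in type I collagen, their peaks were nearly centred on each other. The 44 overlapping pairs of Col1a1 had a median distance between midpoints of 3.75 nt, with 38 within 10 nt, and the 44 pairs of Col1a2 one of 4.75 nt, with 33 within 10 nt. In Col6a1 the 11 pairs had a median of 2 nt, with 10 within 10 nt. No pair had both the same start and the same end, though some shared 1 of them. Sharing at least 1 nt by itself keeps the midpoints of short peaks close. Overlapping pairs elsewhere in the lists were not measured, so these distances are descriptions and not traits of these genes. SRSF2 was centred downstream in 18 and upstream in 26 pairs of Col1a1, in 25 and 19 of Col1a2 and in 5 and 5 of Col6a1, so the 3 genes had no common side.

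Overlapping pairs were ranked by the lower of their 2 scores. This serves only to name pairs, since the 2 lists have no known common scale of scores. The first pair of Col1a1 by this rank was a 36 nt SRSF1 peak of score 51 (chr11:94809230-94809265) lying wholly within a 44 nt SRSF2 peak of score 46 (chr11:94809228-94809271). The second by that rank was at the 3′ end of the listed span, with scores of 38 for SRSF1 (chr11:94813114-94813150) and 37 for SRSF2 (chr11:94813113-94813158). The following one lay near the 5′ end, where an SRSF1 peak of score 35 (chr11:94799266-94799331) and an SRSF2 peak of score 47 (chr11:94799247-94799331) ended at the same base. That SRSF2 peak was the highest of the gene in its list. This pair was tied at a lower score of 35 and is named before the others by position only. The others were SRSF1 of score 48 (chr11:94807183-94807218) with SRSF2 of score 35 (chr11:94807192-94807219), and SRSF1 of score 35 (chr11:94812480-94812504) with SRSF2 of score 46. Of the SRSF1 peaks, chr11:94804704-94804750 equalled the score of 51 and met an SRSF2 peak of score 33, and chr11:94809064-94809094 (score 49) met one of score 28. The SRSF2 peak at chr11:94812480-94812513 (score 46) met an SRSF1 peak of score 35. All of the 3 highest peaks of each protein in Col1a1 were thus shared.

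In Col1a2 the highest-scoring peak of each protein lay at the very start of the listed span. A single SRSF2 peak of 146 nt and score 37 (chr6:4455757-4455902) covered most of 2 SRSF1 peaks, of score 32 (chr6:4455753-4455806) and 38 (chr6:4455832-4455901). It is the widest peak of the 4 genes, against a median width of 22 nt for SRSF2 in Col1a2 and 19 nt in the whole list. The pair ranked after these by the lower score was near the 3′ end, with an SRSF1 peak of score 34 (chr6:4490563-4490624) and an SRSF2 peak of score 30 (chr6:4490564-4490597). Inside the gene, an SRSF2 peak of score 33 (chr6:4475896-4475925) met an SRSF1 peak of score 28, and an SRSF1 peak of score 33 (chr6:4479072-4479108) met an SRSF2 peak of score 25. As in Col1a1, each of the 3 highest peaks of either protein was shared.

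Col6a1 had a pair of sites that stood out for both proteins. At chr10:76184659-76184697 SRSF1 had its highest score in the gene, 32, and the SRSF2 peak displaced by 1 nt (chr10:76184660-76184698) had 36, also its highest. At chr10:76174034-76174109 a 76 nt SRSF1 peak of score 31 was matched by a 76 nt SRSF2 peak of score 28, again displaced by 1 nt. No other SRSF1 or SRSF2 peak of the gene scored above 23. By the lower score the next pair had 16 and 17 (chr10:76171740-76171750 for SRSF1 and chr10:76171714-76171750 for SRSF2), while a pair of 23 and 15 had a higher SRSF1 score (chr10:76175094-76175126).

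Over all shared sites, scores of the proteins were only loosely related. Spearman's rho between the scores of overlapping pairs was 0.135 over the 44 pairs of Col1a1, 0.262 over the 44 of Col1a2 and 0.265 over the 11 of Col6a1. Some pairs share a peak, all pairs come from the same pair of libraries and the lists hold no low scores for these genes, so the values are descriptions. The SRSF1 score was the higher in 18, 19 and 5 pairs of these genes and the SRSF2 score in 24, 22 and 6.

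Peaks of 1 protein alone had lower median scores than shared ones in both type I genes. High scores and overlap go together over the whole lists, and these medians were not computed for other units. The difference is thus not read as a trait of these genes. In Col1a1 the median score was 25 for overlapped and 21 for other SRSF1 peaks, and 29 and 24 for SRSF2. Col1a2 had medians of 17 and 12 for SRSF1 and 18 and 15 for SRSF2, and Col6a1 15 and 14 for SRSF1 and 16.5 and 14.5 for SRSF2. The highest SRSF2 peak of Col1a1 without an overlap had a score of 36 (chr11:94812526-94812556), and an SRSF1 peak of score 35 lay 21 nt away. In Col1a2 the highest SRSF1 peak without an overlap had a score of 24 (chr6:4480178-4480215), and the nearest SRSF2 peak, of score 13, was 752 nt away. In Col6a1 the SRSF2 peaks of score 20 (chr10:76180813-76180844) and 19 (chr10:76181121-76181149) lay 235 and 543 nt from an SRSF1 peak. The peaks in these sentences were picked after their values were seen.

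Joining peaks of both lists that lay at most 10 nt apart gave the number of distinct sites. The 107 peaks of Col1a1 fell into 50 sites, 33 of them with both proteins, 9 with SRSF1 alone and 8 with SRSF2 alone. The 118 peaks of Col1a2 fell into 59 sites, 35 with both, 10 with SRSF1 alone and 14 with SRSF2 alone. Col6a1 had 34 sites, only 8 with both and 13 with each protein alone, and Col3a1 had 14 sites, 1 with SRSF1 and 13 with SRSF2. The share of sites with both was 66.0% (51.2 to 78.8) in Col1a1, 59.3% (45.7 to 71.9) in Col1a2 and 23.5% (10.7 to 41.2) in Col6a1. The interval of Col6a1 lies below those of both type I genes. For joined sites no share over all units was computed, and neither scores nor peak density were matched. The difference between the genes was not tested. These sites covered 11% of the span in Col1a1, 5.98% in Col1a2, 5.16% in Col6a1 and 0.748% in Col3a1.

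Peaks gathered toward the 3′ end in all 4 genes. With the span from the first to the last listed peak cut into 3 equal parts in the direction of transcription, the 3′ part held 55 of 107 peaks in Col1a1 (51.4%, 41.5 to 61.2) and 63 of 118 in Col1a2 (53.4%, 44.0 to 62.6). It held 29 of 48 in Col6a1 (60.4%, 45.3 to 74.2) and 13 of 16 in Col3a1 (81.3%, 54.4 to 96.0). Over all units with at least 10 peaks, 39.7% of the peaks lay in that part. The interval lay above this value in each of the 4 genes, against 14.6% of 2948 units. Intervals narrow as peaks grow in number, so units with many peaks clear the value more easily. The share of a unit had quartiles of 25% and 53.8% over the 2948 units, with a median of 38.1%. Col1a1 and Col1a2 thus lay between the quartiles, and Col6a1 and Col3a1 above the upper one. When peaks of the same list at most 10 nt apart were merged, the interval of Col1a2 (50.5%, 40.2 to 60.8) reached down to the value over all units, then 40.3%.

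Each protein alone also had more than 39.7% of its peaks in the 3′ part of every gene. On these smaller counts, few intervals lay above that value. They were those of SRSF2 in Col1a2 (40.9 to 66.6) and Col3a1 (51.9 to 95.7) and of SRSF1 in Col6a1 (40.6 to 81.2). All other intervals of a single protein include it. In the 3′ part lay 27 of 55 SRSF1 and 28 of 52 SRSF2 peaks of Col1a1, 29 of 55 and 34 of 63 of Col1a2, and 15 of 24 and 14 of 24 of Col6a1. In Col3a1 it held the single SRSF1 peak and 12 of 15 SRSF2 peaks, and the middle part held none. The last 10% of the span alone held 32 peaks in Col1a1 (29.9%), 30 in Col1a2 (25.4%), 16 in Col6a1 (33.3%) and 7 in Col3a1. The densest 1000 nt had 21 peaks in Col1a1 (chr11:94811668-94812667, 9 SRSF1 and 12 SRSF2) and 13 in Col1a2 (chr6:4487860-4488859, 6 and 7). In Col6a1 they had 14 (chr10:76171557-76172556, 7 and 7), at the 3′ end of this minus-strand gene. No annotation of the mm9 build was at hand, so these stretches were not assigned to exons, introns or untranslated regions.

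**Figure D4:**
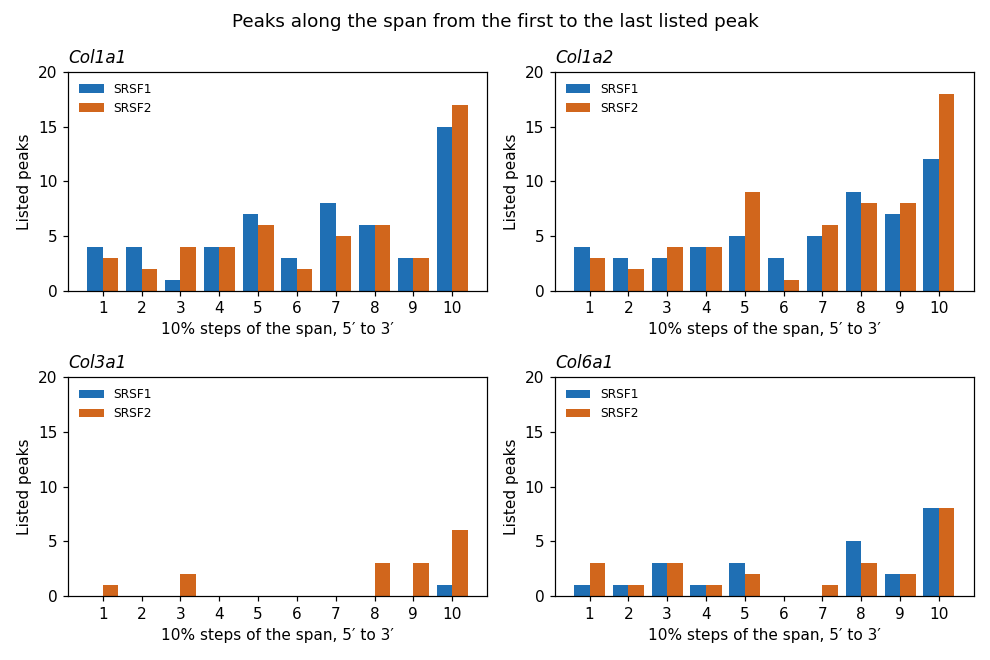
Bars give the number of listed SRSF1 and SRSF2 peaks in each 10% of the span from the first to the last peak, read 5′ to 3′. The last 10% is the fullest in each gene, with 15 SRSF1 and 17 SRSF2 peaks in Col1a1, 12 and 18 in Col1a2, 1 and 6 in Col3a1 and 8 of each in Col6a1.

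Long stretches without a listed peak of either protein were common toward the 5′ side of Col1a2. There the widest, of 3441, 2804 and 2731 nt, were centred at 6.08%, 22.8% and 14.8% of the span from its 5′ end. The widest lay just after the group of peaks at its start (chr6:4456169-4459609). In Col1a1 the widest was 1283 nt (chr11:94797745-94799027), directly after the first group of peaks, and a second of 1231 nt (chr11:94809272-94810502) followed the shared site ranked first. Col6a1 had an empty stretch of 3542 nt in the middle of its span (chr10:76176888-76180429). Col3a1 was empty over 16322 nt (chr1:45378485-45394806), between 3 SRSF2 peaks at the 5′ side and 13 peaks of both lists at the 3′ side.

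Among genes with a symbol, those nearest to each collagen gene in their pair of peak numbers, as the distance between log2(peaks + 1) over the 2 libraries, differed by gene. Nearest to Col1a2 was its partner Col1a1 (distance 0.272), before Zfhx4 (68 SRSF1 and 76 SRSF2 peaks, 0.402) and Flna (45 and 51, 0.413). Nearest to Col1a1 among RefSeq-named units were Flna (0.285), Med13 (44 and 40, 0.487) and Smc5 (46 and 36, 0.577). Col6a1 was nearest to Wapl (24 and 25, 0.0566), Faf1 (26 and 24, 0.111) and Fnbp4 (26 and 25, 0.125). Col3a1 was nearest to Wdr41 (2 and 14, 0.592), F2r (2 and 12, 0.657) and Oat (2 and 11, 0.717), all with few SRSF1 peaks.

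Few other genes of the collagen pathway had a peak in a unit with a gene name, and the lists do not tell whether the rest were unbound or in unnamed units. Of 40 other collagen genes only Col23a1, a transmembrane collagen, had a named peak, 1 of SRSF2. Of 20 genes for the modification, folding and export of collagen chains, 5 had named peaks, 28 of SRSF1 and 33 of SRSF2 (45.9%, 33.1 to 59.2). P4hb, the protein disulfide isomerase subunit of prolyl hydroxylase, had 15 SRSF1 and 14 SRSF2 peaks, and Ppib, a prolyl isomerase of the endoplasmic reticulum, had 8 and 14. All 8 SRSF1 peaks of Ppib were overlapped. Sec23a, a coat protein of export vesicles, had 3 and 4, P3h3 1 and 1, and P3h2 1 and 0.

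Of 12 genes for cleavage and crosslinking, 3 had named peaks (16 and 18, 47.1%, 29.8 to 64.9). Pcolce, which enhances the removal of the procollagen C-propeptide, had 12 SRSF1 and 13 SRSF2 peaks, 8 of each overlapped, Adamts14 had 1 and 4, and Loxl3 3 and 1. Of 20 fibril partners and receptors, 3 had named peaks (43 and 23, 65.2%, 52.4 to 76.5): Thbs1 with 23 and 10, Postn with 13 and 2 and Antxr2 with 7 and 11. Thbs1 (69.7%, 51.3 to 84.4) and Postn (86.7%, 59.5 to 98.3) leaned to SRSF1 and Col3a1 to SRSF2, so these genes did not share 1 direction. The interval of Antxr2 (38.9%, 17.3 to 64.3) includes the overall share of 47.5%. An interval that excludes that share was found in 5.83% of the units with at least 10 peaks. Of 11 genes for collagen breakdown and its inhibitors, Timp1 had 0 and 4, Mmp2 and Timp3 2 and 1 each, and Ctsk 1 and 0, together 5 and 6 (45.5%, 16.7 to 76.6).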

How the data were processed

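The authors deposited 1 peak list per protein, each row with a position, a name, a strand and a score. The build is mm9 according to the submitters' processing notes, and positions are printed 1-based. Which aligner, peak caller and threshold were used is not stated in these sources. Whole-number values from 4 up make up the deposited score, whose meaning is undocumented. No mm9 annotation or genome was used here, so no peak was annotated and no sequence is printed. Symbols came from the RefSeq table of GRCm38.p6, names only; 2155 of 2169 accessions matched. Overlap meant at least 1 nt on the same strand. The overlap step was tested on simulated data and against bedtools 2.31.1. Intervals used scipy 1.17.1. No test was possible with 1 library per protein. The genes described are the 4 members; per gene the 3 highest peaks and pairs, widest gaps and likest genes are named. Members and lists were chosen with earlier results of these data known. The neighbouring units, units of equal peak number, matched score ranges, joined sites, densest stretches and isolated peaks were added after seeing the data. Python 3.11.15 was used.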

Additional observations from a re-analysis of the deposited data

How the results depend on the processing

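The values were recomputed under 62 alternatives. Of these, 24 left the peaks of a gene as they were and could not move its value: the score filter removes no peak of Col1a1, Col1a2 or Col6a1, and membership by coordinate gave the same peaks for Col1a1 and Col6a1. Of the other 38, 33 stayed within the interval of the value given above. The 38 include the overlap settings of Col3a1, which could not move from 0 either. Its only SRSF1 peak lay 1150 nt from the nearest SRSF2 peak, beyond the reach of any setting. Counting midpoints within 50 nt, or setting every peak to 50 nt, raised the overlapped share in Col1a1 to 87.3% for SRSF1 and 90.4% for SRSF2, since each counts near neighbours as met. With peaks of at least the median score of their list, the SRSF1 share of Col3a1 fell from 6.25% to 0%, 0 of 10 peaks. Against the same value over all peaks or units, 1 of these 38 intervals changed side, that of the 3′ part of Col1a2 with peaks merged. No paired analysis was possible because each protein has 1 library. Depth is unknown, numbered peaks are missing from both lists, and Col3a1 rests on 16 peaks.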
